A study of Mus musculus with 30 samples.

Results

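The genes described here are 9 transcripts of dopamine-responsive neurons of the striatum, Drd2, Adora2a, Gpr6, Penk, Tac1, Ppp1r1b, Rgs9, Pde10a and Pde7b, taken by their gene symbols from the 23303 entries of the expression table. RNA sequencing was performed on amygdala and blood of male C57BL/6J mice aged 2 to 3 months, in libraries that each pooled 2 animals. Home-cage controls (HC) were handled only, a second group (FC) was killed 2 h after auditory fear conditioning, and another group (Immo+FC) received the same conditioning a week after a single immobilization. No group received immobilization alone, so Immo+FC differed from HC by both treatments. Amygdala libraries numbered 6 for HC, 6 for FC and 4 for Immo+FC, and blood libraries numbered 4, 5 and 5. The amygdala tissue was a bilateral 1 mm punch centred on the basolateral nucleus, and blood RNA was depleted of globin transcripts. Amygdala libraries held between 23148078 and 31366290 sequences, and blood libraries held between 9081977 and 25892322. Of the mapped sequences, 91.33% to 92.3% aligned uniquely in amygdala libraries and 60.06% to 72.59% in blood libraries.

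The striatum lies dorsal to the amygdala, and most of its neurons are GABAergic medium spiny projection neurons that receive dense dopamine input. Indirect pathway neurons carry the dopamine D2 receptor and the adenosine receptor Adora2a and make enkephalin, whereas direct pathway neurons carry the D1 receptor and make substance P, and both types signal through cyclic AMP and DARPP-32. Neurons of the central and intercalated amygdala nuclei share several of these transcripts, so the 9 genes together do not mark the striatum alone. All 9 were measured in every amygdala library, and levels are given in fragments per kilobase of transcript, scaled to library size (FPKM), a unit that corrects for transcript length and allows genes to be compared.

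On the mouse GRCm38 build, which is the build of mm10, Drd2 lay at chr9:49340627-49408177 on the plus strand and Gpr6 at chr10:41069977-41072285 on the minus strand. Rgs9 lay at chr11:109225355-109298129 on the minus strand. The sequences of the 100 bases directly before their RefSeq start sites (assembly GRCm38.p6) are shown because Drd2 and Rgs9 were the pair whose levels followed each other most closely, and because Gpr6 was the member with a full cyclic AMP response element in this reference. They are written in the direction of transcription. Capitals mark that element, TGACGTCA, or a GC box, GGGCGG or its reverse complement CCGCCC.

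Drd2, chr9:49340303-49340402, plus strand: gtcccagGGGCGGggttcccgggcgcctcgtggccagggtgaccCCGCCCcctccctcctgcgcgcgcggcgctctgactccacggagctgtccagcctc

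Rgs9, chr11:109298182-109298281, minus strand: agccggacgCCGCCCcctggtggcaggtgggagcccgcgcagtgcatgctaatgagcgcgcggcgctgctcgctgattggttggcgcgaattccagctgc

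Gpr6, chr10:41072291-41072390, minus strand: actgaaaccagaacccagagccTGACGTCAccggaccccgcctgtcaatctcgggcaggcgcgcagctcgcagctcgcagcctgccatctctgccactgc

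Both strands of the 250 bases before each start site were searched, in 7 promoters of 6 members (Drd2, Gpr6, Tac1, Rgs9, Pde10a and Pde7b). The full cyclic AMP response element was found in 1 of the 7, that of Gpr6, and in 1.55% of 32851 mouse promoters. GC boxes were found in 4 of the 7, those of Drd2, Pde10a, Rgs9 and Tac1, and in 32.7% of all promoters. These matches describe letters in the window only.

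Among the receptors, Drd2, the inhibitory dopamine receptor of indirect pathway neurons, ranged from 3.21 to 13.7 FPKM in the 6 HC pools, with a median of 5.60. In the 6 FC pools it ranged from 2.73 to 14.4 FPKM with a median of 6.90, and in the 4 Immo+FC pools it was 10.9, 11.3, 14.3 and 4.69 FPKM. The 3 groups overlapped, and the lowest Immo+FC pool ranked 11 of 16. Adora2a, the adenosine receptor that opposes D2 signalling in the same neurons, ranged from 5.15 to 20.8 FPKM in HC (median 8.64) and from 3.14 to 21.96 FPKM in FC (median 10.4). The Immo+FC pools held 23.6, 16.7, 24.9 and 6.36 FPKM. It had the widest span of the 9 genes, 7.93-fold between the lowest pool, FC 3, and the highest, Immo+FC 3. Gpr6, a constitutively active receptor of indirect pathway neurons, ranged from 1.37 to 6.97 FPKM in HC (median 2.605) and from 0.970 to 5.93 FPKM in FC (median 3.28). Its Immo+FC pools were at 6.26, 3.48, 4.69 and 1.80 FPKM, within the span of the other groups.

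The neuropeptide genes were more abundant and varied less in proportion. Penk, the enkephalin precursor, ranged from 75.1 to 230 FPKM in HC (median 132) and from 81.3 to 255 FPKM in FC (median 160), and in Immo+FC it was 257, 202, 292 and 120 FPKM. Pools 1 and 3 lay above every HC and FC pool, whereas pool 4 lay below the HC median. Tac1, the substance P precursor of direct pathway neurons, ranged from 13.6 to 30.2 FPKM in HC (median 16.9) and from 15.2 to 33.4 FPKM in FC (median 19.5). The Immo+FC pools were at 26.1, 21.1, 38.6 and 15.7 FPKM. Tac1 had the narrowest span of the 9 genes, 2.83-fold, and its groups overlapped.

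The signalling genes act downstream of these receptors. Ppp1r1b encodes DARPP-32, which inhibits protein phosphatase 1 once it is phosphorylated by protein kinase A, and it ranged from 50.8 to 153 FPKM in HC (median 83.3) and from 59.8 to 164 FPKM in FC (median 81.9). Its Immo+FC pools were at 128, 121, 142 and 70.5 FPKM, none outside the range of the HC pools. Rgs9, a regulator that shortens G protein signals, ranged from 6.42 to 25.2 FPKM in HC (median 11.4) and from 5.30 to 23.8 FPKM in FC (median 10.6), and was at 18.4, 20.0045, 25.9 and 9.38 FPKM in Immo+FC. Pde10a, a phosphodiesterase that hydrolyses cyclic AMP and cyclic GMP, ranged from 12.98 to 31.3 FPKM in HC (median 18.98) and from 10.6 to 30.8 FPKM in FC (median 17.7). In the Immo+FC pools it was at 17.5, 23.4, 29.7 and 18.9 FPKM, so that pool 1, which was second of 16 for Adora2a, Gpr6 and Penk, ranked 10 for Pde10a. Pde7b, a phosphodiesterase specific for cyclic AMP, ranged from 4.41 to 9.39 FPKM in HC (median 5.75) and from 3.55 to 9.69 FPKM in FC (median 6.83), and was at 8.05, 8.34, 10.8 and 6.15 FPKM in Immo+FC.

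**Figure D1:**
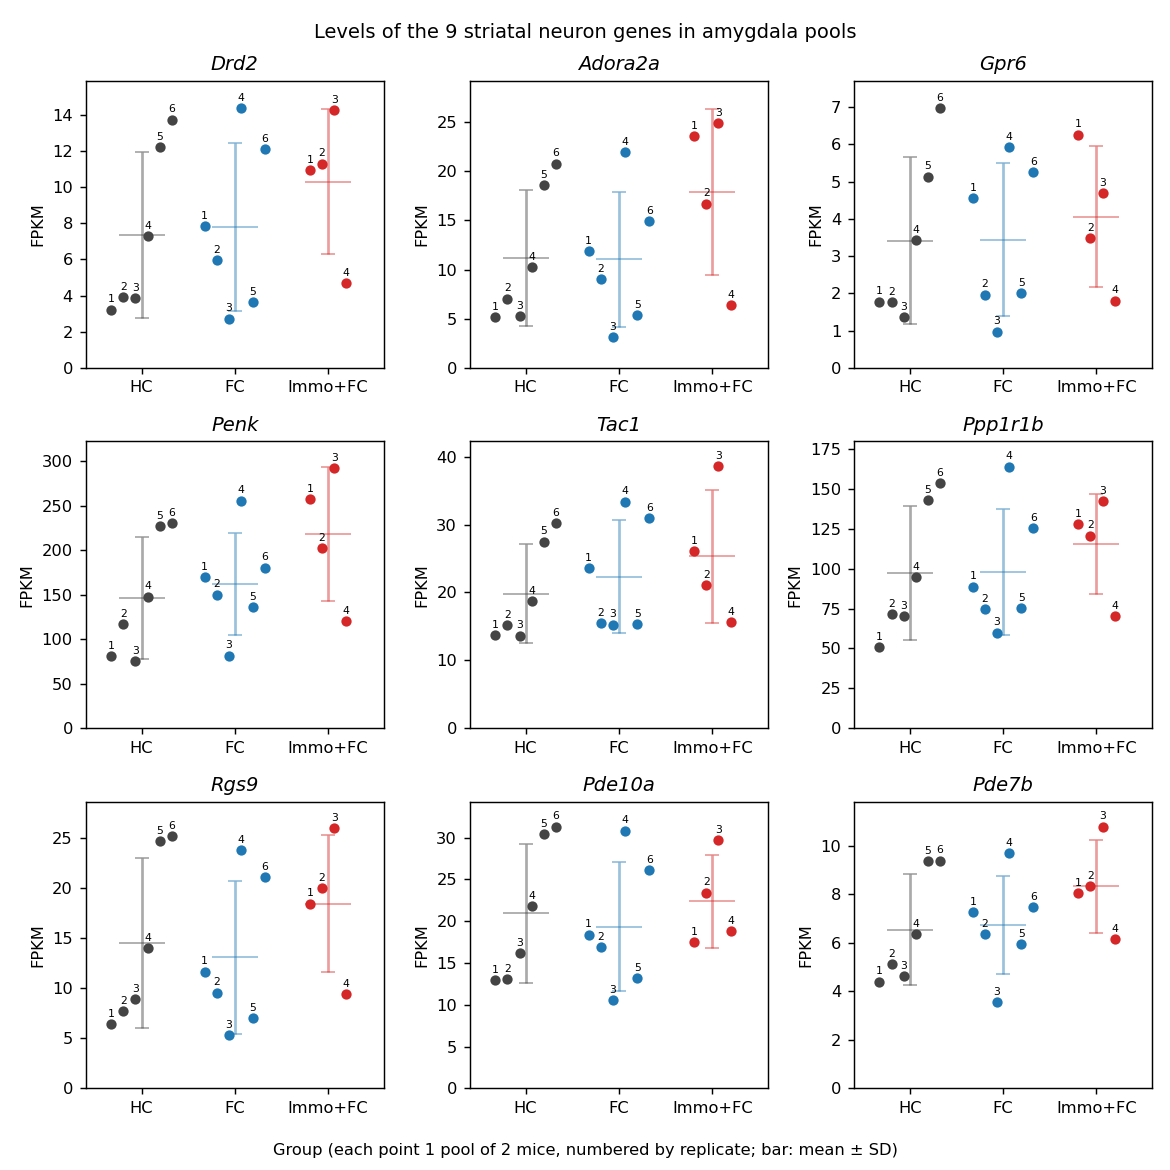
FPKM (vertical axes, linear and starting at 0) of the 9 genes in the 16 amygdala pools, by group, with each point 1 pool numbered by its replicate and the bars giving mean ± SD over 6 HC, 6 FC and 4 Immo+FC pools. The groups overlap for every gene, and the same pools (HC 5 and 6, FC 4, Immo+FC 3) sit near the top of all 9 panels.

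By median level over the 16 pools, the order was Penk at 160 FPKM, Ppp1r1b at 91.8, Tac1 at 19.9, Pde10a at 18.6, Rgs9 at 12.8, Adora2a at 11.05, Drd2 at 7.57, Pde7b at 6.83 and Gpr6 at 3.46 FPKM. Penk exceeded Ppp1r1b, Ppp1r1b exceeded Tac1, Adora2a exceeded Drd2 and Pde7b exceeded Gpr6 in 16 of 16 pools. Tac1 exceeded Pde10a in only 9 pools and Drd2 exceeded Pde7b in only 9 pools, so the order of these neighbours varied from pool to pool.

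The 9 genes rose and fell together from pool to pool. In 4 pools (HC 5, HC 6, FC 4 and Immo+FC 3) all 9 genes were among their 6 highest values, and in 4 others (HC 1, HC 2, HC 3 and FC 3) all 9 were among their 6 lowest. A score was formed as the mean over the 9 genes of log2(FPKM + 0.1), each gene relative to its own mean over the 16 pools. On this log2 scale the score ran from -1.09 in FC 3 and -0.84 in HC 1 to 0.80 in FC 4 and 0.82 in Immo+FC 3. It ranged from -0.84 to 0.77 in HC, from -1.09 to 0.80 in FC and from -0.44 to 0.82 in Immo+FC, whose lowest pool ranked 11 of 16. The group means were -0.12 ± 0.70 (SD, n = 6), -0.10 ± 0.70 (SD, n = 6) and 0.32 ± 0.54 (SD, n = 4).

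Over the 16 amygdala libraries, the 36 pairs of members had Pearson correlations of log2 levels between 0.80 and 0.99, with a median of 0.93, and Spearman correlations between 0.79 and 0.98. The closest pair was Drd2 and Rgs9 (r = 0.99, rho = 0.98), and the least close was Penk and Pde10a (r = 0.80, rho = 0.79). With each gene centred within its group, r lay between 0.83 and 0.99, and without the 2 pools farthest from the median of the first gene of a pair it lay between 0.79 and 0.98. These correlations are descriptions over pools that share their library, and in bulk tissue more cells of a type cannot be told apart from more RNA per cell.

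The spread among pools of one group was far wider for these genes than for most. The standard deviation within groups of the log2 level was 0.93 for Adora2a, 0.91 for Gpr6, 0.87 for Drd2, 0.80 for Rgs9, 0.62 for Penk, 0.56 for Ppp1r1b, 0.53 for Pde10a, 0.52 for Tac1 and 0.45 for Pde7b. The median over the 13508 genes tested in the amygdala was 0.13. Pde7b, with the smallest spread of the 9, exceeded 96.7% of all genes, and Adora2a exceeded 99.2%.

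The 3 comparisons were made with limma across the 13508 genes that averaged 0.5 FPKM or more in the amygdala, on log2(FPKM + 0.1), with Benjamini-Hochberg adjustment over all of them. In FC against HC, 0 of 9 members passed an adjusted p of 0.05 and 0 had an unadjusted p under 0.05, where 0.0148% and 13.1% of all genes did. In Immo+FC against FC both counts were again 0 of 9, with 0.0222% and 10.4% of all genes. In Immo+FC against HC they were 0 of 9 as well, with 0.2% and 13.1% of all genes. In no comparison did the groups separate without overlap for any member, which they did for 1.39%, 2.28% and 2.57% of all genes in the same order. The labels do not say how the animals of one amygdala pool relate to those of another. In the paper, animals of a cage were either all immobilized or all handled, so cage and immobilization cannot be told apart. The comparisons share groups: FC against HC and Immo+FC against HC share the HC pools, and both comparisons of Immo+FC share its 4 pools.

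In FC against HC, the log2 differences of the members lay between -0.15 and 0.21, with a median of 0.03 beside 0.01 over all genes. The largest was that of Penk at 0.21 ± 0.31 (SE), with a 95% interval from -0.45 to 0.87 and a limma adjusted p of 0.832. Estimates were positive for 6 members and negative for 3. The interval of Adora2a ran from -1.06 to 0.94, wide enough to hold a 2-fold difference in the negative direction, and that of Pde7b from -0.44 to 0.53.

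In Immo+FC against FC, all 9 estimates were positive, with a median of 0.35 beside -0.02 over all genes, and none passed the test. Adora2a was at 0.78 ± 0.53 (SE; 95% interval -0.34 to 1.90, limma adjusted p = 0.637) and Rgs9 at 0.61 ± 0.46 (95% interval -0.35 to 1.57, adjusted p = 0.668). Drd2 was at 0.53 ± 0.49 and Penk at 0.43 ± 0.35. The estimates of these genes are not separate pieces of evidence, since the pools order them alike.

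In Immo+FC against HC, all 9 estimates were again positive, with a median of 0.38 beside -0.01 over all genes. Penk had the smallest p of the 27 member comparisons, with a difference of 0.64 ± 0.35 (SE; 95% interval -0.10 to 1.38, unadjusted p = 0.0856, limma adjusted p = 0.461). Adora2a was at 0.72 ± 0.53 and Drd2 at 0.60 ± 0.49. Immo+FC pool 4 ranked between 8 and 13 of 16 for the 9 members, below the other 3 pools of its group for 8 of them. Without that pool the difference of Adora2a became 1.21 against FC (adjusted p = 0.362) and 1.16 against HC, and that of Penk 0.90 against HC (limma adjusted p = 0.216).

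Some estimates turned when a covariate was added. Pools differed in a score of genes with transcripts above 10000 bases, which was below its mean in HC 1 and 2, in all 6 FC pools and in Immo+FC 1. With that score as a covariate, Adora2a, Rgs9 and Pde10a turned from negative to positive in FC against HC, and Drd2, Tac1, Ppp1r1b, Rgs9, Pde10a and Pde7b turned from positive to negative in Immo+FC against FC, while no member passed the test. The score correlated with that of the 9 genes at r = 0.36 and rho = 0.32 over the 16 libraries (r = 0.31 without the 2 farthest). Its part in the levels was not tested further. With all 6 FC pools below its mean, the score could not be told apart from a difference between the groups.

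**Figure D2:**
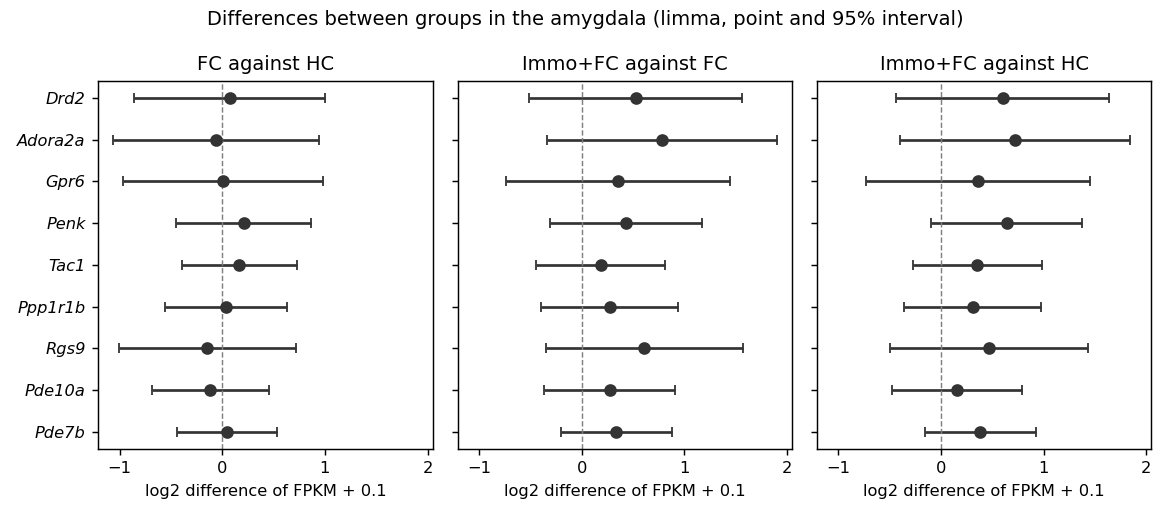
Log2 differences of FPKM + 0.1 (horizontal axes) for the 9 genes in the 3 amygdala comparisons, as limma estimates with 95% intervals. Every interval includes 0; the 9 points straddle 0 in FC against HC and all lie above it in both comparisons of Immo+FC.

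The 10 genes whose levels were most like the score of the 9 over the 16 amygdala libraries included Syndig1l (r = 0.99, rho = 0.96), Slc35d3 (r = 0.97), Lrrc10b (r = 0.97), Sh3rf2 (r = 0.97), Adcy5 (r = 0.96), Smpd3 (r = 0.94), Ptprv (r = 0.94), Rasd2 (r = 0.94) and Cd4 (r = 0.94). Of the 10, 7 were in the lists of striatal genes used here, which were chosen with earlier results of these data known. Adcy5, the main adenylyl cyclase of striatal neurons, ran from 27.9 to 56.8 FPKM. With each gene centred within its group, 8 of the 10 genes were the same, and Pde1b and Inf2 took the places of Ptprv and Cd4. Of 13499 genes outside the 9, 86 had r of at least 0.8 and 22 of at least 0.9, and 19 had r of -0.8 or lower.

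A list of 30 other striatal projection neuron genes followed the 9 closely in its mean, though not in every gene. Its mean log2 score correlated with theirs at r = 0.98 and rho = 0.99 (r = 0.98 without the 2 farthest pools). Of its 30 genes, 22 had r of at least 0.7, where 1.3% of the 13499 genes outside the 9 did, the list included. The list was chosen with earlier results of these data known, so this count is a description only. Its summed level ran from 812 to 1215 FPKM, and the sum of the 9 ran from 179 to 521 FPKM in HC, 183 to 559 in FC and 253 to 583 in Immo+FC. Hpca, a calcium sensor, and Arpp21, a cyclic AMP-regulated phosphoprotein, had the highest means of the list and differed in this respect, with r = 0.88 and r = 0.24. Crym and Gucy1a3, named after their values were seen, went the other way, with r = -0.45 and r = -0.11. None of the 30 passed the test in any amygdala comparison, with 13, 21 and 26 positive estimates in FC against HC, Immo+FC against FC and Immo+FC against HC and medians of -0.01, 0.09 and 0.08.

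Of 8 direct pathway neuron genes 7 were tested, and their score correlated with that of the 9 at r = 0.96 and rho = 0.97 (0.94 without the 2 farthest pools), and 3 of the 7 had r of at least 0.7. Pdyn, the dynorphin precursor, ran from 2.90 to 23.4 FPKM with r = 0.85, whereas Sfxn1, a mitochondrial carrier, stayed between 15.4 and 17.5 FPKM with r = -0.34. Drd1a, the D1 receptor, chosen here after its values were seen, ran from 4.94 to 12.6 FPKM with r = 0.90. The 4 tested of 5 other indirect pathway genes had a score with r = 0.80 and rho = 0.76 (0.72 without the 2 farthest) and 0 of 4 genes with r of at least 0.7, with Grik3, a kainate receptor subunit, at r = 0.67 and Gpr52, a receptor coupled to cyclic AMP, at r = 0.64. No gene of either list passed the test in any comparison, and their medians lay between 0.01 and 0.17.

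Among 27 genes of dopamine and cyclic AMP signalling, 25 were tested and 6 had r of at least 0.7, of which 5 (Drd1a, Gnal, Gng7, Adcy5 and Pde1b) are also in the striatal or direct pathway lists. The list's score had r = 0.90 and rho = 0.87 with that of the 9 (0.89 without the 2 farthest), but its median gene had r = 0.24. Prkar1b, a regulatory subunit of protein kinase A, had r = -0.28 and stayed between 251 and 310 FPKM, and Ppp3ca, the calcineurin catalytic subunit, had r = 0.70 and stayed between 247 and 303 FPKM. None of the 25 passed the test in any comparison, and the medians were 0.024, 0.017 and -0.0028. Opioid and tachykinin receptor genes were low. Oprd1, the delta receptor that binds enkephalin, averaged 4.25 FPKM with r = 0.42, and Oprk1, the kappa receptor that binds dynorphin, averaged 3.93 FPKM with r = 0.69. Tacr1, the substance P receptor, named after its values were seen, averaged 2.20 FPKM with r = 0.69. Of the 5 receptors 4 were tested, none passed, and their medians were 0.31, -0.16 and 0.14.

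Taken as lists, markers of the amygdala itself did not follow the 9 genes in this way, although single markers did. The score of 13 tested markers of the central and intercalated nuclei had r = 0.31 and rho = 0.36 with theirs (r = 0.13 without the 2 farthest). The summed level ran from 642 to 823 FPKM. Of the 13, 2 had r of at least 0.7: Foxp2 (r = 0.93, rho = 0.94), which is not in the striatal list, and Meis2 (r = 0.71), which is. Sst, somatostatin, had r = 0.18 and Npy, neuropeptide Y, had r = 0.51. The score of 12 markers of glutamate neurons of the basolateral amygdala and cortex had r = -0.24 and rho = -0.32 (-0.08 without the 2 farthest), with a summed level between 1069 and 1370 FPKM and no gene past 0.7 in either direction. Camk2a, a kinase of excitatory synapses, had r = -0.36 and Slc17a7, the vesicular glutamate transporter, had r = -0.23. None of these markers passed the test, with medians of 0.15, -0.04 and 0.08 for the central and intercalated list and 0.03, -0.09 and -0.03 for the glutamate list.

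**Figure D3:**
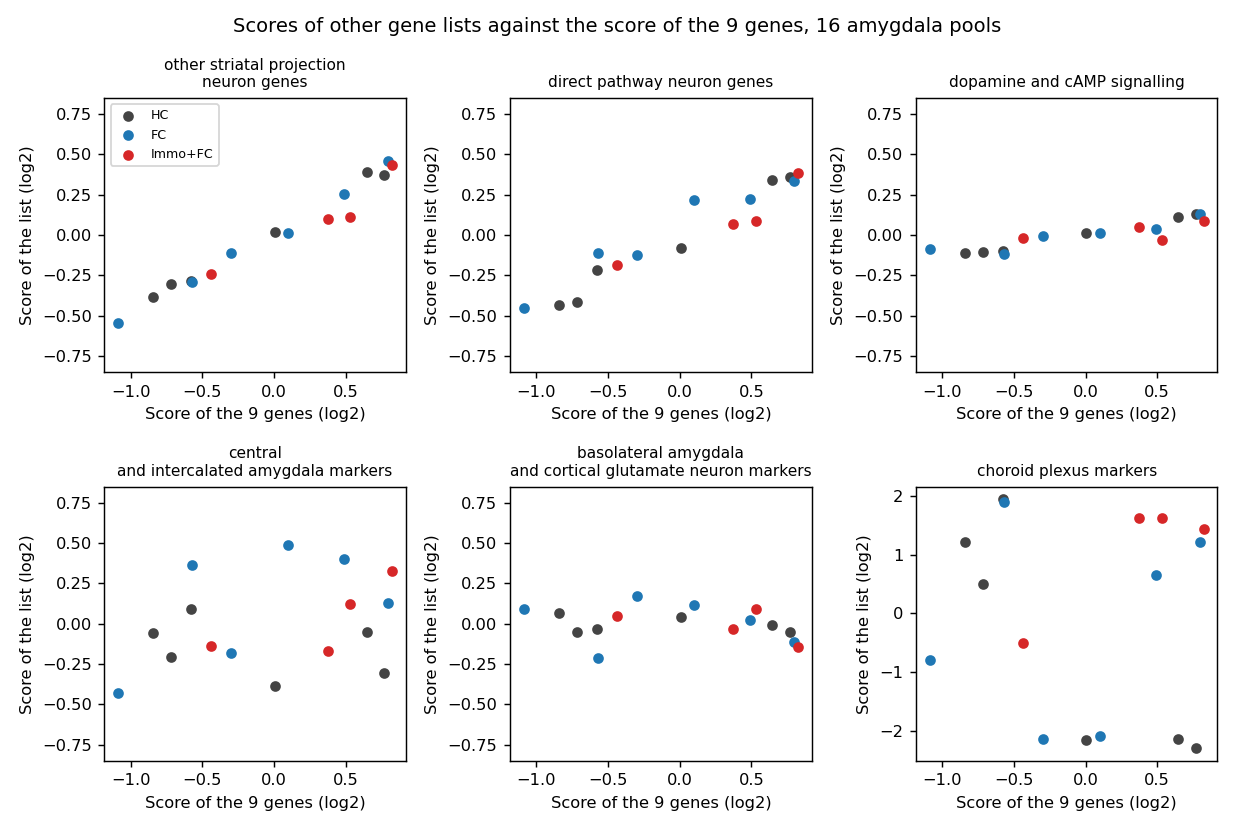
Mean log2 score of 6 gene lists (vertical axes) against the score of the 9 genes (horizontal axes) in the 16 amygdala pools, coloured by group, with the same vertical range in all panels but that of the choroid plexus. The striatal and direct pathway lists rise with the 9 genes (r = 0.98 and 0.96), the central, glutamate neuron and choroid plexus lists do not (r = 0.31, -0.24 and -0.08).

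Other neighbouring tissues were read in the same way. The 10 choroid plexus markers summed to between 4.55 and 1065 FPKM, with r = -0.08 and rho = -0.11 against the score of the 9 (r = -0.08 without the 2 farthest). Ttr, transthyretin, ran from 0.837 to 1027 FPKM, and Kl from 0.552 to 8.41 FPKM. The sum was below 7 FPKM in HC 4, 5 and 6 and in FC 1 and 2, and its range was 4.55 to 1065 in HC, 5.39 to 919 in FC and 116 to 972 FPKM in Immo+FC. All 10 choroid plexus estimates were positive in both Immo+FC comparisons, with medians of 1.04 against FC and 1.21 against HC, and none passed the test. No marker was at 0 in every pool, and the part of this tissue in the estimates of the 9 genes was not tested. Markers of claustrum and cortical layers (7 genes, r = 0.04, with Rprm at -0.38 and Lamp5 at 0.30) and 5 tested of 10 thalamic and hypothalamic markers (r = 0.23, with Ramp3 at 0.42 and Pomc at 0.15) had summed levels of 113 to 155 and 6.05 to 22.6 FPKM, where the highest thalamic and hypothalamic sum was that of FC 6 alone and the next was 9.57 FPKM.

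Among cell classes, 5 pan-neuronal genes had r = 0.04, with Snap25 between 775 and 998 FPKM and Syt1 between 231 and 331 FPKM, a span of 1.29-fold for Snap25 over pools that spanned 7.93-fold in Adora2a. The 8 markers of GABA neurons had r = 0.21, with Gad1 at 0.33 and Gad2 at 0.63. The list did not move one way: Vip and Dlx1, chosen after their values were seen, had r = -0.82 and r = -0.57. The 6 oligodendrocyte genes had r = 0.62 and rho = 0.59 (0.68 without the 2 farthest), with Mbp at 0.66 and a summed level from 663 to 960 FPKM, and their part in the levels of the 9 was not tested. The 6 astrocyte genes had r = -0.41, with Slc1a2 at 0.12 and Slc1a3 at -0.52. The 5 microglia genes had r = 0.17, 5 endothelial genes r = 0.26 (Ly6c1 at 0.07, Cldn5 at 0.16), and 3 tested of 4 markers of midbrain dopamine neurons r = 0.48, of which Ddc had 0.21, Slc18a2 0.09 and Th, named after its values were seen, 0.65. P2ry12, a receptor of resting microglia, was the 1 gene of all 17 lists to pass the test in any comparison, lower in Immo+FC than in HC by -0.36 ± 0.05 (SE; limma adjusted p = 0.0206), with r = -0.30 to the score. No gene passed in that comparison with only the 2 groups fitted, with the replicate number as a block, without Immo+FC pools 1 and 2 together, or without any 1 of HC pools 2 and 5 and Immo+FC pools 1, 2 and 3, so this call was lost there.

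In blood, 4 of the 9 members reached a mean of 0.5 FPKM (Adora2a, Penk, Ppp1r1b and Pde7b) and were tested among 11656 genes. Replicate numbers ran within each tissue, so a blood pool and an amygdala pool of the same number can hold different mice. None passed an adjusted p of 0.05 in limma, beside 0.0343% of all genes in FC against HC, 0% in Immo+FC against FC and 0.0686% in Immo+FC against HC. Unadjusted p values under 0.05 were found for 2, 1 and 2 of the 4, beside 10.2%, 9.54% and 15.3% of all genes. Both counts against HC include Ppp1r1b, which reached 0.5 FPKM only through its HC pools. Adora2a, which leukocytes also express, was at 8.55, 7.07, 6.05 and 6.95 FPKM in HC. The FC pools held 7.18, 5.83, 6.58, 7.40 and 8.06 FPKM, and those of Immo+FC 5.55, 4.52, 6.73, 5.74 and 8.66 FPKM. Its pools overlapped in every comparison, and its span of 1.91-fold was far below that in the amygdala.

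Pde7b was at 1.56, 1.09, 0.970 and 1.85 FPKM in HC. The FC pools held 1.81, 1.35, 1.11, 1.38 and 0.885 FPKM, and those of Immo+FC 4.43, 4.60, 1.91, 1.63 and 1.89 FPKM. Immo+FC pools 1 and 2 stood above every other blood pool, and the remaining 3 lay at or near the upper end of the other groups. The difference was 0.98 ± 0.31 against FC (SE; unadjusted p = 0.00625, limma adjusted p = 0.523) and 0.93 ± 0.33 against HC (limma adjusted p = 0.187).

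Ppp1r1b was at 1.97, 0.342, 0.784 and 2.50 FPKM in HC. The FC pools held 0.344, 0.0931, 0.162, 0.0863 and 0.191 FPKM, and those of Immo+FC 0.230, 0.115, 0.0935, 0.943 and 0.294 FPKM. Penk was at 2.80, 1.24, 5.38 and 0.672 FPKM in HC and at or below 1.62 FPKM in every FC and Immo+FC pool. HC had the higher mean for both, and the log2 difference in FC against HC was -2.21 ± 0.60 (SE) for Ppp1r1b and -2.10 ± 0.78 for Penk (limma adjusted p = 0.159 and 0.342). Ppp1r1b averaged 1.40 FPKM in HC, 0.175 FPKM in FC and 0.335 FPKM in Immo+FC. It thus reached the level required for the test only through HC, so its differences against HC depend on that choice. In Immo+FC against HC the difference of Ppp1r1b was -1.76 ± 0.60 (adjusted p = 0.174) and that of Penk -1.49 ± 0.78 (adjusted p = 0.388). Snap25, a synaptic transcript of neurons, moved the same way, at 11.7, 3.60, 14.5 and 16.5 FPKM in HC and at most 4.37 FPKM in the other blood pools, and its part in the difference was not tested. Drd2, Gpr6 and Tac1 were listed at 0 in 10, 12 and 11 of the 14 blood pools, and Rgs9 and Pde10a stayed at or below 0.564 and 0.810 FPKM. These 5 genes were below the level required for the test and were not tested in blood. Pde10a averaged 0.419 FPKM over the HC pools, beside 0.0820 FPKM for FC and 0.0454 FPKM for Immo+FC.

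**Figure D4:**
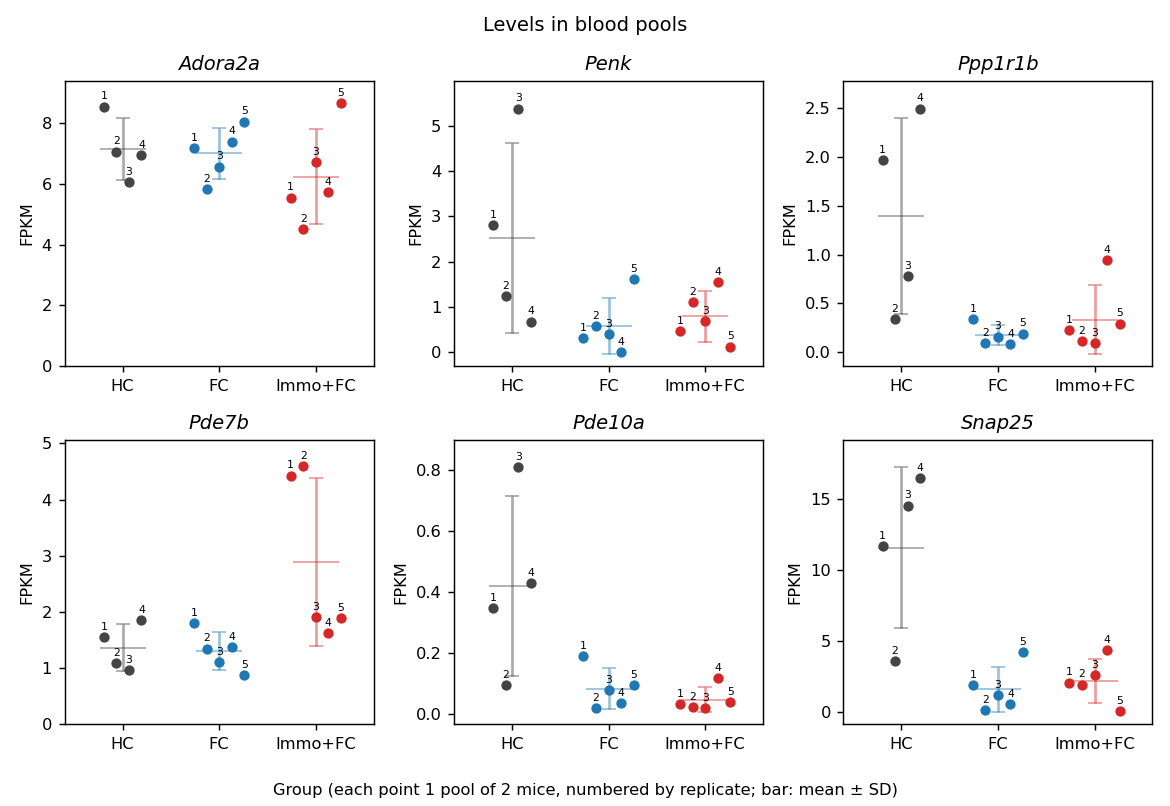
FPKM (vertical axes, linear) of 5 of the 9 genes and of Snap25 in the 14 blood pools, by group, with each point 1 pool numbered by its replicate and the bars giving mean ± SD over 4 HC, 5 FC and 5 Immo+FC pools. Adora2a overlaps between all groups, Pde7b is highest in Immo+FC pools 1 and 2, and Penk, Ppp1r1b, Pde10a and Snap25 are highest in HC pools.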

How the data were processed

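Amygdala and blood libraries, each a pool of 2 mice, were taken from the deposited table of FPKM, in which the authors had aligned reads to mm10 with STAR 2.3 and estimated each library's level with Cufflinks and Cuffdiff 2.1.1, tissue by tissue. The deposited sequencing summary gave counts of sequences and the percent of mapped sequences that aligned uniquely per library. FPKM carry no counts, so no counting interval was formed. Groups were taken from the sample labels, and 0 columns of the table were left unmapped.

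Genes averaging 0.5 FPKM or more in a tissue were tested on log2(FPKM + 0.1) with limma 3.58.1 (R 4.3.3), with a mean-variance trend, the 3 groups in one fit and Benjamini-Hochberg adjustment over all genes, called at 0.05. The fit was tested on simulated data. The authors' own test needs reads and was not repeated. By that test the paper reported Pde7b as differing between Immo+FC and FC in both tissues, and Drd2 in the amygdala. P-values set each difference between groups against the spread between pools, estimated over the 3 groups together and moderated across genes. Lists held known markers; the text names, per list, genes past the test or else the 2 of highest mean, and the 10 genes most like the members; some genes this rule takes are not reported here. Members and lists were chosen with earlier results of these data known. Promoters came from RefSeq and positions from GENCODE, both on GRCm38; promoters of Adora2a, Penk and Ppp1r1b were not analysed here.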

Additional observations from a re-analysis of the deposited data

Results flagged for a closer look

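The distance of the highest or lowest pool from the rest, as a share of the group's range, was read for 9 members in 6 groups, 54 combinations in all. Gpr6 in FC and Immo+FC blood and Tac1 in FC blood were at 0 in every pool and could not be marked. Chance alone marks about 1 in 20, but this share does not hold where most pools are listed at 0. There a single pool above 0 is marked at any level. No amygdala group was marked for any member. In blood 5 were, all at low levels. Ppp1r1b was 0.943 FPKM in Immo+FC pool 4, where the median of that group was 0.230 FPKM, and Pde10a was 0.117 FPKM in the same pool, beside a median of 0.0314 FPKM; Snap25 was also highest of its group in that pool, at 4.37 FPKM. In the other 3 cases a single pool stood above pools listed at 0: Drd2 at 0.0822 FPKM in an HC pool and at 0.104 FPKM in an FC pool, and Tac1 at 0.119 FPKM in Immo+FC pool 4.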

How the results depend on the processing

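No member passed the test in any comparison under the 27 alternatives run for the amygdala or the 22 for blood. The smallest adjusted p values reached were 0.507, 0.362 and 0.216 in the amygdala (FC against HC, Immo+FC against FC, Immo+FC against HC) and 0.0666, 0.260 and 0.0937 in blood. The direction of some estimates depended on the processing, and the cause was not tested. Larger estimates were among them: in Immo+FC against FC, Rgs9 at 0.61 and Drd2 at 0.53 turned negative with the long transcript score as covariate. In amygdala FC against HC, 40 of 243 estimates changed sign. Leaving out each pool in turn gave -0.15 to 0.32 for Drd2, -0.20 to 0.30 for Gpr6, -0.13 to 0.19 for Ppp1r1b, -0.070 to 0.21 for Pde7b, -0.31 to 0.25 for Adora2a, -0.36 to 0.070 for Rgs9 and -0.27 to 0.037 for Pde10a. Without HC pools 1 and 2, Drd2 was -0.33, Gpr6 -0.32, Penk -0.018, Tac1 -0.024, Ppp1r1b -0.25 and Pde7b -0.15, and Pde10a was -0.14 in Immo+FC against HC. With the long transcript score as covariate, Adora2a was 0.34, Rgs9 0.46 and Pde10a 0.43, and in Immo+FC against FC Drd2 was -0.051, Tac1 -0.078, Ppp1r1b -0.11, Rgs9 -0.011, Pde10a -0.29 and Pde7b -0.015. With array weights Adora2a was 0.031. In Immo+FC against FC, leaving out each pool gave -0.041 to 0.39 for Tac1. In blood FC against HC it gave -0.10 to 0.061 for Adora2a and -0.19 to 0.10 for Pde7b.

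Same-numbered pools did not deviate together (correlations of -0.26 to 0.31 in the amygdala and -0.25 to 0.21 in blood), so the numbers were not taken to pair them. With the replicate block, 0 members passed in each comparison, Penk was at 0.84 in Immo+FC against HC (adjusted p = 0.445), and Pde7b was at 0.060 in blood FC against HC.

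The number of all genes called was less stable. It was 2, 3 and 27 in the amygdala, but 500, 171 and 16 with array weights, 160, 62 and 0 with the replicate block, 355, 121 and 2 without HC pools 1 and 2, and 2, 66 and 0 with only the groups compared. Leaving out each pool gave 1 to 143, 1 to 30 and 0 to 148. In blood it was 4, 0 and 8, but 195, 0 and 105 with no minimum level and 11, 0 and 361 with array weights. Depth behind single FPKM values is unknown.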
